A study of Mus musculus with 6 samples.

Results

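The genes that write and erase DNA methylation were examined in GC-2spd cells, a mouse cell line derived from spermatocytes, exposed to fine particulate matter (PM2.5). The set held 10 genes of the 54886 listed in the files. They are the DNA methyltransferases Dnmt1, Dnmt3a and Dnmt3b, their catalytically inactive relative Dnmt3l, the cofactor Uhrf1, the dioxygenases Tet1, Tet2 and Tet3, and the DNA glycosylases Tdg and Mbd4. They were taken by name, with earlier results of these data known, and all 10 were found. RNA was sequenced from 3 control libraries and from 3 libraries of cells given PM2.5 at 100 μg/mL, both at 48 h. Control cells got no particles and are labelled untreated. In its cell culture methods, the study describes normal medium and PBS for its control group. All libraries came from the same line, labelled as BALB/c in background, and the particles were the reference urban dust SRM 1648a. The study speaks of repeated experiments in general, but the labels do not say whether these libraries came from separate cultures, so p-values measure the spread between them, which may be technical. No DNA methylation was measured, and every value here is an RNA level.

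In mammals, cytosine methylation is found mainly at CG dinucleotides. UHRF1 recognises the hemimethylated CG left behind the replication fork and brings in DNMT1, which copies the mark to the new strand, while DNMT3A and DNMT3B place it on unmethylated sites. DNMT3L has no catalytic activity of its own and stimulates DNMT3A and DNMT3B, above all in germ cells. TET enzymes oxidise methylcytosine with 2-oxoglutarate as a cosubstrate, and TDG removes the oxidised bases so that repair restores cytosine. Methylation also keeps a set of germline genes silent in somatic cells and marks the parental copies of imprinted genes.

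None of the 10 genes was called as different between PM2.5 and control cells. Uhrf1 and Dnmt1 were the highest of the set in all 6 libraries, and the maintenance machinery stood far above the de novo methyltransferases. Dnmt3l was the only member with every PM2.5 library above every control library, which was so for 6.08% of the 25594 genes above 0 in any library. It had 24 reads in the PM2.5 group and 3 in the control group, and its adjusted p did not pass the threshold in limma. In limma on log2 values, 5 of the 7 genes that could be tested were higher in PM2.5 cells when all libraries entered. When control replicate 2 was left out, 0 of 7 were higher. Among all 11884 genes tested, 6166 and 5703 were higher in these fits. In plain FPKM the mean of Dnmt1 was 47.5 in PM2.5 cells and 47.4 in the controls left without that library.

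Control replicate 2 stood apart from the rest. Its Pearson correlation with the other controls on log2(FPKM + 1), over the genes tested, was 0.742 and 0.745, while the other controls correlated at 0.992 with each other. Mitochondrial genes took 14.5% of its reads, against 1.65% to 1.95% in the other libraries. The reads recovered from the deposited values numbered 16209352 to 18003201 per library. The members' differences are therefore given with and without control replicate 2.

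The promoters of 3 members are shown because they span the range of the set, from its highest genes to the gene near zero. Promoter windows of 300 bases, from 250 before to 50 after an annotated start, were taken from RefSeq on GRCm38.p6 and matched for all 10 members. Where a gene had several starts, the window richest in CG was used. Dnmt1 and Dnmt3l had 3 windows each and Uhrf1 had 2, so positions below refer to 1 of several annotated starts. Sequences run 5′ to 3′ on the gene's strand, and capitals mark every CG.
Dnmt1 (chr9:20952574-20952873, minus strand): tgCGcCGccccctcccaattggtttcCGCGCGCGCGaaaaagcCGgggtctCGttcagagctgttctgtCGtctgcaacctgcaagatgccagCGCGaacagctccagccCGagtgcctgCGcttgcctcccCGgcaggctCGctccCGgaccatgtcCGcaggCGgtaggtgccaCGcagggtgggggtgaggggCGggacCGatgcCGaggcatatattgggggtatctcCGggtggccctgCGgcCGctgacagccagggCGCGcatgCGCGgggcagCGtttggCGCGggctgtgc
Uhrf1 (chr17:56304063-56304362, plus strand): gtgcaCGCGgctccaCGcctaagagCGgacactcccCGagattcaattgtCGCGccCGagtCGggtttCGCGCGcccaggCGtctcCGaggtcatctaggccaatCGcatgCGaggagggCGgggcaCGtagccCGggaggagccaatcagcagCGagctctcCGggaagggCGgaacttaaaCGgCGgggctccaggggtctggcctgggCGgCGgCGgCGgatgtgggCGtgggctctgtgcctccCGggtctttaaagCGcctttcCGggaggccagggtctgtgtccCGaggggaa
Dnmt3l (chr10:78042037-78042336, plus strand): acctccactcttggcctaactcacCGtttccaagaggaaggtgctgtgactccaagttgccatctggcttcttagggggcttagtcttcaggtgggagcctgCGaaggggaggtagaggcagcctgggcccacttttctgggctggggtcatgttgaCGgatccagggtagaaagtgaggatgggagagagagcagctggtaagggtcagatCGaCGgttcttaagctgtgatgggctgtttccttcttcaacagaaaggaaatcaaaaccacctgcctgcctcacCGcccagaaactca
The Dnmt1 and Uhrf1 windows held 33 CG each and the Dnmt3l window 6, against a median of 8 over 27025 genes. The other members held 17 (Tet1) to 57 (Tet2). Dnmt1 and Uhrf1 each contained TTTCGCGC once, on the minus and the plus strand of the gene, 219 and 185 bases before the start of the window used. This is the letter string usual for E2F sites at S phase genes, and with both strands searched it was found in 0.340% of all genes' windows. The 8 other members held none. TTTGGCGC, a second E2F-type string that does not overlap it, occurred once in the Dnmt1 window and in 0.551% of all genes' windows. The string GCGTG, the core of the element bound by the aryl hydrocarbon receptor, was found on either strand in 33.6% of genes. It occurred 3 times in the Uhrf1 window, 2 times in that of Tdg, 1 time in that of Dnmt1 and 0 times in that of Dnmt3l. A match of letters is a description of the window and no evidence of binding.

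The maintenance genes were Uhrf1 and Dnmt1. Uhrf1 (ENSMUSG00000001228, GRCm38 chromosome 17, 56303321 to 56323486) had 77.8, 42.0 and 78.5 FPKM in control replicates 1 to 3 and 79.0, 75.2 and 76.3 FPKM in the PM2.5 replicates. FPKM are fragments scaled to exon length and to library depth. The PM2.5 libraries lay close together and beside control replicates 1 and 3, and control replicate 2 was alone at 53.7% of the other controls. The group means were 66.1 ± 20.9 and 76.8 ± 1.98 FPKM (SD, n = 3). On the log2(FPKM + 1) scale, the difference of PM2.5 from control in limma was 0.27 (SE 0.30, adjusted p = 0.875), with a 95% confidence interval from -0.46 to 1.00. It was -0.02 without control replicate 2 (SE 0.08, interval from -0.24 to 0.19, adjusted p = 0.908 in limma).

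Dnmt1 (ENSMUSG00000004099, chromosome 9, 20907209 to 20959888) had 47.8, 31.7 and 47.0 FPKM in the controls and 52.5, 50.2 and 39.8 FPKM in the PM2.5 libraries. The groups overlapped, with control replicate 2 lowest and PM2.5 replicate 3 next. The means were 42.2 ± 9.11 and 47.5 ± 6.74 FPKM (SD, n = 3). The log2 difference was 0.18 (SE 0.25, interval from -0.43 to 0.79, adjusted p = 0.876 in limma) and, without control replicate 2, -0.01 (SE 0.14, interval from -0.38 to 0.36, adjusted p = 0.986). PM2.5 replicate 3 held 77.6% of the mean of the other PM2.5 libraries for this gene. Within each library the level of Uhrf1 was 1.33 to 1.92 times that of Dnmt1 in FPKM. The mean ratio was 1.54 ± 0.187 in controls and 1.64 ± 0.239 in PM2.5 cells (SD, n = 3, exact permutation p = 0.6, 2-sided, adjusted over the 8 ratios and sums compared 0.933), and the control mean without replicate 2 was 1.65. With 3 libraries against 3 this test cannot go below 0.1.

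The de novo methyltransferases were low. Dnmt3a (ENSMUSG00000020661, chromosome 12, 3806007 to 3914443) had 1.18, 0.801 and 1.12 FPKM in controls and 1.09, 1.15 and 0.961 FPKM in PM2.5 cells, from 173 to 365 reads per library. Its groups overlapped, and control replicate 2 was again the lowest library. Its log2 difference was 0.03 (SE 0.19, interval from -0.44 to 0.50) with all libraries and -0.06 (SE 0.11, interval from -0.34 to 0.22) without control replicate 2.

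Dnmt3b (ENSMUSG00000027478, chromosome 2, 153649450 to 153687730) had 1.15, 1.25 and 0.934 FPKM in controls and 1.02, 0.883 and 0.954 FPKM in PM2.5 cells, from 80 to 109 reads. It passed the filter for testing, a mean of 1 FPKM over all 6 libraries, only through its controls. Its mean was 1.11 FPKM in controls, 0.952 FPKM in PM2.5 cells and 1.03 FPKM over all 6 libraries. It was the tested member that was highest, not lowest, in control replicate 2, at 120% of the other controls. The groups overlapped, and the log2 difference was -0.11 (SE 0.19, interval from -0.57 to 0.34), or -0.06 (SE 0.12, interval from -0.36 to 0.23) without control replicate 2. The adjusted p-values of Dnmt3a and Dnmt3b in limma lay between 0.814 and 0.967 in both fits. Dnmt1 made up 93.9% to 95.9% of the FPKM summed over Dnmt1, Dnmt3a, Dnmt3b and Dnmt3l in each library. That share was 94.99% ± 0.971 in controls and 95.6% ± 0.363 in PM2.5 cells (SD, n = 3, exact permutation p = 0.5, adjusted 0.933), with a control mean of 95.5% when replicate 2 was left out.

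Dnmt3l (ENSMUSG00000000730, chromosome 10, 78041947 to 78063622) was close to zero. It had 2, 0 and 1 reads in the controls and 13, 6 and 5 reads in the PM2.5 libraries, or 0.0361, 0 and 0.0186 FPKM against 0.244, 0.113 and 0.0926 FPKM. The groups did not overlap, but every control was under 3 reads, the number that a count of 0 still allows, and PM2.5 replicate 1 alone held 13 of the 24 PM2.5 reads. Non-overlap with PM2.5 higher was seen in 6.08% of the 25594 genes with a value above 0 in any library. The ratio of summed reads, scaled to the depth implied by the FPKM, was 7.39 with an exact binomial 95% interval from 2.24 to 38.3. This interval covers counting error only, and without control replicate 2 the ratio was 5.45 (interval from 1.66 to 28.3). The exact permutation p of its log2(FPKM + 1) was 0.1, the smallest this design allows.

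The gene was under the filter on low values, a mean of 1 FPKM, and was tested only with that filter removed. Then the log2(FPKM + 1) difference was 0.17 (SE 0.06, unadjusted p = 0.0354, adjusted p = 0.807 in limma), where 3.42% of all genes had an unadjusted p under 0.05. With voom, which models the recovered reads in limma, the log2 fold change was 2.58 (SE 0.73, unadjusted p = 0.00728, adjusted p = 0.754), where 4.13% of genes were under 0.05. Without control replicate 2 voom gave 2.06 (SE 0.70, unadjusted p = 0.0249, adjusted p = 0.336), beside 11.4% of genes under 0.05, and the log2(FPKM + 1) fit gave 0.16 (unadjusted p = 0.0923, adjusted p = 0.587). The exons of Dnmt3l overlap those of Aire on the other strand over 2.24% of their length. Whether the counting used strand is not stated, so reads from that stretch cannot be assigned.

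**Figure D1:**
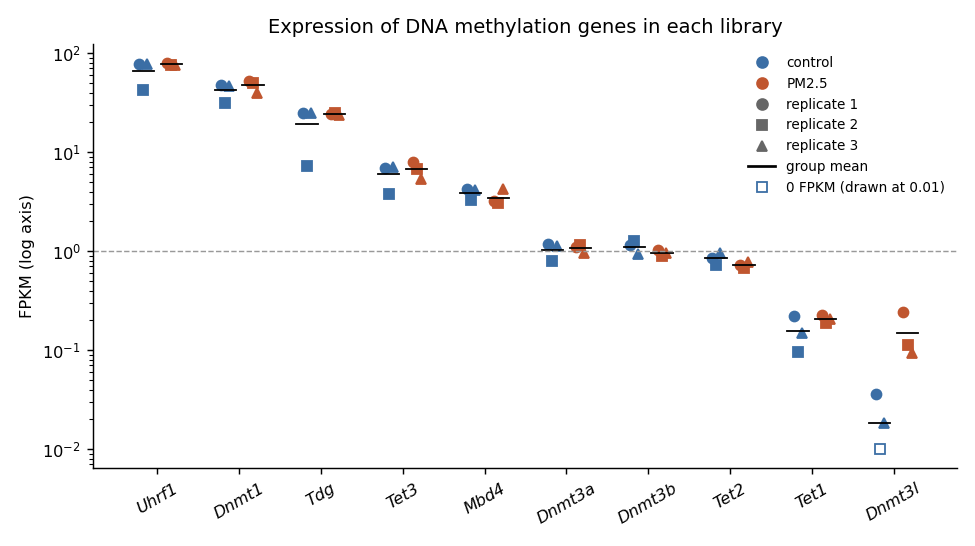
Level of each of the 10 genes in FPKM on a log axis, 1 point per library, with controls in blue, PM2.5 in orange, a shape per replicate and a black bar at each group mean; the dashed line marks 1 FPKM. Uhrf1 to Mbd4 keep their order in every library, control replicate 2 is the lowest point for most genes, and only Dnmt3l has its groups apart.

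Among the dioxygenases, Tet3 was the main form. Tet3 (ENSMUSG00000034832, chromosome 6, 83362373 to 83459084) had 6.96, 3.78 and 7.15 FPKM in controls and 7.97, 6.82 and 5.37 FPKM in PM2.5 cells. Control replicate 2 was lowest, PM2.5 replicate 3 was next at 72.7% of the other PM2.5 libraries, and the groups overlapped. The log2 difference was 0.18 (SE 0.28, interval from -0.51 to 0.86, adjusted p = 0.879 in limma) and, without control replicate 2, -0.08 (SE 0.16, interval from -0.50 to 0.35, adjusted p = 0.849). Of the 7 tested members, Tet3 and Dnmt1 had the lowest shares in PM2.5 replicate 3.

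Tet2 (ENSMUSG00000040943, chromosome 3, 133463679 to 133545139) had 0.862, 0.722 and 0.967 FPKM in controls and 0.723, 0.668 and 0.777 FPKM in PM2.5 cells, from 158 to 294 reads. With control replicate 2 the groups overlapped, and without it all PM2.5 libraries lay below the remaining controls, which was so for 13.6% of genes. The ratio of reads, PM2.5 to control, was 0.838 with a counting interval from 0.752 to 0.932, and without that library 0.792 with an interval from 0.706 to 0.888. Over libraries, with no filter, the log2(FPKM + 1) difference was -0.10 (SE 0.14, adjusted p = 0.821 in limma) and without control replicate 2 -0.15 (SE 0.09, adjusted p = 0.644). With voom the log2 fold change was -0.24 (SE 0.29, adjusted p = 0.840) and, without that library, -0.32 (SE 0.15, unadjusted p = 0.0735, adjusted p = 0.506).

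Tet1 (ENSMUSG00000047146, chromosome 10, 62804570 to 62908996) had 63, 19 and 42 reads in controls and 63, 51 and 57 reads in PM2.5 cells, or 0.220, 0.0948 and 0.151 FPKM against 0.228, 0.186 and 0.204 FPKM. Its groups overlapped, and control replicate 2 was the lowest. The ratio of reads was 1.27 with a counting interval from 1.00 to 1.62, and 1.11 (interval from 0.866 to 1.43) without control replicate 2. The log2(FPKM + 1) difference with no filter was 0.06 (SE 0.08, adjusted p = 0.817 in limma), or 0.03 (SE 0.07, adjusted p = 0.910) without control replicate 2. With voom it was 0.45 (SE 0.43, adjusted p = 0.840) and 0.18 (SE 0.27, adjusted p = 0.769). Tet3 held 82.2% to 89.3% of the FPKM summed over the 3 Tet genes. This share was 85.1% ± 2.47 in controls and 87.6% ± 2.63 in PM2.5 cells (SD, n = 3, exact permutation p = 0.3, adjusted 0.933), with a control mean of 86.5% when replicate 2 was left out.

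**Figure D2:**
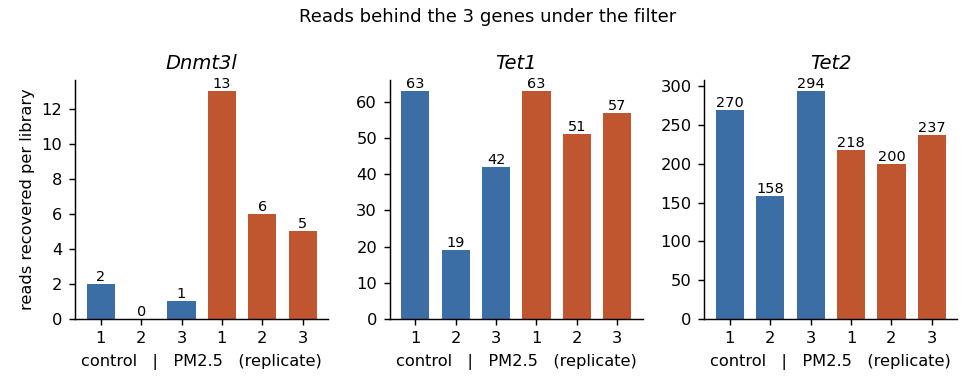
Reads recovered per library for Dnmt3l, Tet1 and Tet2, the 3 genes under the filter of a mean of 1 FPKM, with controls in blue and PM2.5 in orange and the count above each bar. Dnmt3l rests on 0 to 2 reads per control and 5 to 13 per PM2.5 library, while Tet2 rests on 158 to 294.

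The glycosylases differed most in how they behaved in control replicate 2. Tdg (ENSMUSG00000034674, chromosome 10, 82629828 to 82650799) had 24.9, 7.27 and 25.0 FPKM in controls and 24.1, 25.1 and 23.5 FPKM in PM2.5 cells. The 5 libraries other than control replicate 2 lay between 23.5 and 25.1 FPKM, and that library was at 29.2% of the other controls, the lowest share of the 7 tested members. The log2 difference of 0.51 (SE 0.48, interval from -0.65 to 1.67, adjusted p = 0.875 in limma) became -0.04 (SE 0.08, interval from -0.26 to 0.17, adjusted p = 0.836) without it. Of the 31-base words in the Tdg transcripts, 48.0% also occur in other genes' transcripts, so its level depends on how such reads were assigned. The same share was 24.2% for Uhrf1, 13.5% for Dnmt3b and 6.18% for Mbd4.

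Mbd4 (ENSMUSG00000030322, chromosome 6, 115840697 to 115853371), which removes thymine from T:G mismatches left by deaminated methylcytosine, had 4.29, 3.26 and 4.12 FPKM in controls. In PM2.5 cells it had 3.18, 3.04 and 4.22 FPKM. PM2.5 replicates 1 and 2 lay below all controls, and PM2.5 replicate 3 lay among them at 136% of the other PM2.5 libraries. The log2 difference was -0.13 (SE 0.19, interval from -0.60 to 0.34, adjusted p = 0.877 in limma) with all libraries. It was -0.22 (SE 0.14, interval from -0.59 to 0.14, adjusted p = 0.497) without control replicate 2, the largest in size of the 7. The ratio of Tdg to Mbd4 ranged from 2.23 in control replicate 2 to 8.24 in PM2.5 replicate 2. Its mean was 4.70 ± 2.14 in controls and 7.12 ± 1.40 in PM2.5 cells (SD, n = 3, exact permutation p = 0.3, adjusted 0.933), and without control replicate 2 the control mean was 5.94.

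**Figure D3:**
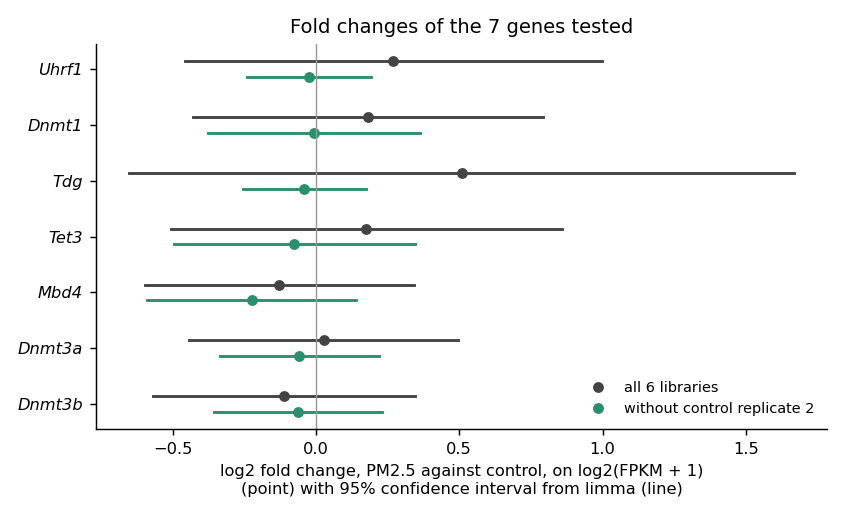
Log2 fold change of PM2.5 against control on log2(FPKM + 1) for the 7 genes tested, as a point with its 95% confidence interval from limma, with all 6 libraries in grey and without control replicate 2 in green. All intervals include 0, and that of Tdg, from -0.65 to 1.67 with all libraries, narrows to -0.26 to 0.17.

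Across the set, 7 of the 10 genes passed the filter. It was set on the mean of all 6 libraries and kept for the fit without control replicate 2, and Dnmt3b passed it only through its controls. With all libraries 0 of the 7 were called at an adjusted p under 0.05 and 0 had an unadjusted p under 0.05, against 0.0926% and 3.80% of the 11884 genes tested. Leaving out control replicate 2, the members again gave 0 and 0, against 0.993% and 15.9%. Their groups did not overlap for 0 of 7 genes, against 15.2% of the genes tested, and for 0 of 7 without control replicate 2, against 37.3%. The median log2 difference of the 7 was 0.18, beside 0.02 for all genes tested, and -0.06 without control replicate 2, beside -0.01. In that library 6 of the 7 members lay below the mean of the other controls, as did 52.5% of all genes tested. The median size of that difference was 0.57 for members and 0.81 for all genes on the log2 scale. The ends of the 7 intervals without control replicate 2 lay between -0.59 and 0.36 on the log2(FPKM + 1) scale, which understates the change of genes near 1 FPKM. With voom on the recovered reads, 0 of 7 were called and 0 had an unadjusted p under 0.05, with all libraries and without control replicate 2.

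The order of the levels was the same in all libraries for the first 5 genes, Uhrf1, Dnmt1, Tdg, Tet3 and Mbd4. Dnmt3b changed places with Dnmt3a in control replicate 2 and with Tet2 in control replicate 3, while Dnmt3a stood above Tet2 in all 6 libraries. In PM2.5 cells Dnmt3a (1.07 ± 0.0958 FPKM) and Tet2 (0.723 ± 0.0546 FPKM, SD, n = 3) did not overlap. Tet1 and Dnmt3l came last, and Dnmt3l exceeded Tet1 in PM2.5 replicate 1 alone. The sum of Dnmt1, Dnmt3a, Dnmt3b and Dnmt3l was 5.94 to 7.33 times the sum of the Tet genes in FPKM. That ratio was 6.503 ± 0.731 in controls and 6.52 ± 0.347 in PM2.5 cells (SD, n = 3, exact permutation p = 1, adjusted 1), and the control mean without replicate 2 was 6.09.

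The partners of maintenance were measured next. Of 19 genes that help recruit or release the methyltransferases, 18 were tested and 0 were called in either fit. Of these, 14 lay higher in PM2.5 cells and 4 lower, with a median of 0.09, and without control replicate 2 the split was 11 and 7 with a median of 0.01. Uhrf2, the paralogue of Uhrf1, had 13.6, 6.63 and 12.6 FPKM in controls and 12.1, 12.3 and 13.1 FPKM in PM2.5 cells. Uhrf1 stood at 5.72 to 6.55 times Uhrf2 in every library, also in control replicate 2 at 6.33, where both were lowest. Hells, the remodeller that opens chromatin to DNMT1, had 54.7, 22.8 and 54.5 FPKM in controls and 36.0, 39.0 and 55.5 FPKM in PM2.5 cells. The log2 difference of Hells was 0.06 (SE 0.40), or -0.35 (SE 0.20, adjusted p = 0.471 in limma) without control replicate 2, and PM2.5 replicate 3 stood with control replicates 1 and 3. Usp7, which deubiquitinates UHRF1 and DNMT1, lay between 20.8 and 26.5 FPKM in the 6 libraries, with a log2 difference of 0.09 (SE 0.19), or 0.05 (SE 0.12) without control replicate 2. The largest differences of this list were 0.69 for Cdca7l (SE 0.52) and 0.41 for Trim28 (SE 0.35), and they became 0.08 and 0.06 without control replicate 2. Zfp57, named after its values were seen, was the 1 gene of the list with an unadjusted p under 0.05 in that fit. Among all genes tested, 15.9% were under 0.05 there. Zfp57 was at 0.41 (SE 0.14, unadjusted p = 0.0353, adjusted p = 0.281 in limma), and at -0.33 (SE 0.63) with all libraries. It stood at 559% of the other controls in control replicate 2.

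DNMT1 acts during replication, so S phase genes were counted beside it. All 28 were tested, 12 lay higher and 16 lower with a median of -0.04, and without control replicate 2 the split was 10 and 18 with a median of -0.09. None was called in limma in either fit, and 0 and 2 had an unadjusted p under 0.05, against 3.80% and 15.9% of all genes tested. Those 2, named after their values were seen, were Rrm2 at 0.30 and Ccne2 at -0.39. Pcna, the clamp that tethers DNMT1 to the fork, had 211, 157 and 216 FPKM in controls and 190, 200 and 231 FPKM in PM2.5 cells, with a log2 difference of 0.10 (SE 0.25), or -0.05 (SE 0.12) without control replicate 2. The largest differences were 0.80 for Chaf1a (SE 0.59), with 52.5% of its exon length shared with Ubxn6 on the other strand, and 0.73 for Rrm1 (SE 0.70). They were 0.12 and -0.09 without control replicate 2.

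The supply of S-adenosylmethionine, the methyl donor, was the list with the highest median. Of 14 genes tested of 19, 12 lay higher with a median of 0.34 and 0 were called. With all libraries 1 had an unadjusted p under 0.05 in limma, where 3.80% of all genes tested did. Without control replicate 2 the split was 7 and 7 with a median of -0.05. In that fit 4 genes had an unadjusted p under 0.05, where 15.9% of all genes tested did. Those 4, named after their values were seen, were the folate enzymes Mthfd1 at 0.39, Shmt2 at 0.39 and Shmt1 at 0.31, and Mat2b at -0.22. Mthfd1 had 14.7, 10.4 and 15.5 FPKM in controls and 20.8, 19.9 and 19.4 FPKM in PM2.5 cells, with no overlap, as for 15.2% of the genes tested. For Mthfd1 the log2 difference was 0.55 (SE 0.21, adjusted p = 0.875 in limma), and 0.39 (SE 0.09, adjusted p = 0.140) without control replicate 2. Mat2a, which makes S-adenosylmethionine, had 57.7, 25.0 and 59.2 FPKM in controls and 49.0, 49.3 and 61.6 FPKM in PM2.5 cells. Ahcy, which clears the product S-adenosylhomocysteine, had 60.4, 43.8 and 62.5 FPKM in controls and 52.4, 57.3 and 55.4 FPKM in PM2.5 cells. Of the 31-base words of Ahcy, 71.4% occur in other transcripts. The log2 differences of Mat2a and Ahcy were 0.26 (SE 0.38) and 0.00 (SE 0.22), or -0.14 and -0.16 without control replicate 2. The largest in the list were Ahcyl1 at 0.65 (SE 0.66) and Amd1 at 0.64 (SE 0.66), and 82.8% of the 31-base words of Amd1 occur in other transcripts. They were -0.13 and -0.14 without control replicate 2.

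On the side of the TET enzymes, 13 of 14 partner and 2-oxoglutarate genes were tested and 0 were called. Of these, 6 lay higher and 7 lower with a median of -0.01, and without control replicate 2 the split was 3 and 10 with a median of -0.09. Idh1, which makes 2-oxoglutarate in the cytosol, had 64.1, 28.8 and 63.3 FPKM in controls and 47.1, 54.4 and 61.7 FPKM in PM2.5 cells. Its mitochondrial counterpart Idh2 had 69.1, 41.2 and 71.6 FPKM against 66.8, 67.2 and 63.5 FPKM. Ogt, which binds TET proteins, had 21.8, 15.0 and 21.02 FPKM against 17.3, 17.04 and 21.2 FPKM. The log2 differences of these genes were 0.14, 0.16 and -0.05, or -0.23, -0.10 and -0.21 without control replicate 2. Cxxc5, a CG-binding protein that binds TET2, had 8.02, 11.4 and 8.62 FPKM in controls and 6.24, 6.20 and 3.19 FPKM in PM2.5 cells. Its groups did not overlap with all libraries or without control replicate 2, as for 15.2% and 37.3% of the genes tested. Its log2 difference was -0.77 (SE 0.29, adjusted p = 0.875 in limma), or -0.63 (SE 0.27, adjusted p = 0.359). The next in size was Gadd45b at -0.69 (SE 0.62), which became 0.04 without control replicate 2, where it stood at 474% of the other controls. Gadd45a, named after its values were seen, was at -0.09 (SE 0.68) with all libraries and at 0.69 (SE 0.20, unadjusted p = 0.0191, adjusted p = 0.225 in limma) without control replicate 2.

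Of the repair genes acting after TDG or MBD4, 11 of 12 were tested and 0 were called, with 4 higher, 7 lower and a median of -0.13. Without control replicate 2 the split was 6 and 5 with a median of 0.02. Apex1, the endonuclease that cuts the abasic site, had 3.98, 0.976 and 3.47 FPKM in controls and 11.3, 9.75 and 4.28 FPKM in PM2.5 cells. Its log2 difference was 1.33 (SE 0.48, adjusted p = 0.875 in limma) and 0.91 (SE 0.39, adjusted p = 0.350) without control replicate 2, and 61.7% of its exon length is shared with Pip4p1 on the other strand. Neil3, another glycosylase, was at -0.57 (SE 0.33), or -0.24 without control replicate 2.

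All 9 methyl-CpG readers were tested and 0 were called, with 4 higher, 5 lower and a median of -0.11, or 6 and 3 with a median of 0.17 without control replicate 2. Mbd5, named after its values were seen, had 2.38, 1.57 and 2.15 FPKM in controls and 1.37, 1.45 and 1.70 FPKM in PM2.5 cells. The groups overlapped only through control replicate 2. Without it they lay apart, as for 37.3% of the genes tested, and the log2 difference was -0.38 (SE 0.11, unadjusted p = 0.0178, adjusted p = 0.219 in limma). The largest differences were Zbtb38 at 0.77 (SE 0.52) and Zbtb33 at 0.48 (SE 0.71), and they became 0.17 and -0.35.

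**Figure D4:**
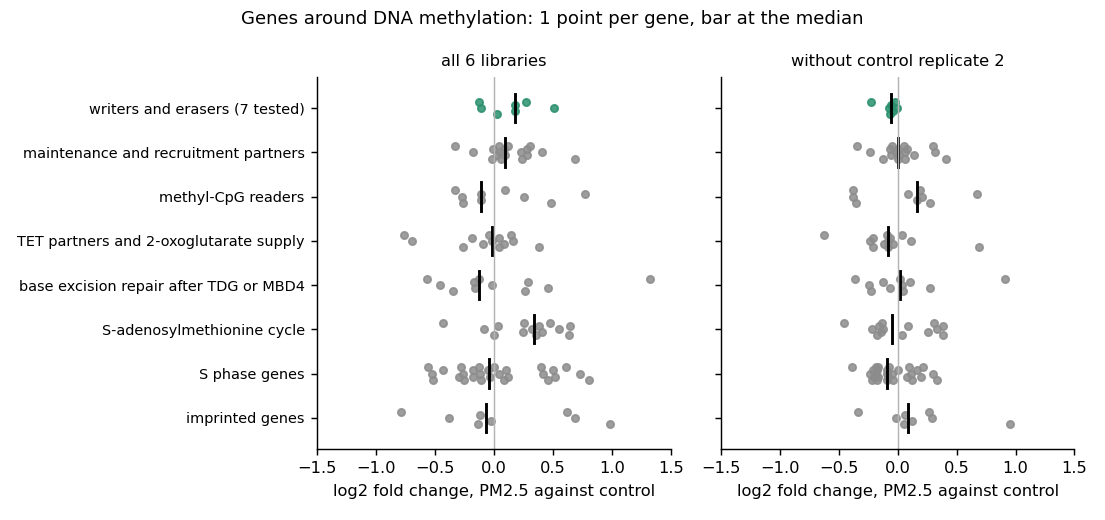
Log2 fold change of PM2.5 against control on log2(FPKM + 1), 1 point per tested gene, for the writers and erasers in green and 7 lists of related genes in grey, with a black bar at each median, with all 6 libraries on the left and without control replicate 2 on the right. The 7 writers and erasers draw together when control replicate 2 is left out, and the median of the S-adenosylmethionine list moves from 0.34 to -0.05.

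Genes under methylation control were read as levels. Of 20 germline genes that methylation silences in somatic cells, 18 had at most 10 reads in every library and 7 had no read in any. The 1 tested gene was Brdt, a testis bromodomain protein, with 1.67, 1.57 and 1.95 FPKM in controls and 1.01, 1.07 and 1.54 FPKM in PM2.5 cells. Its groups did not overlap, which was so for 15.2% of the genes tested. Its log2 difference was -0.32 (SE 0.19, adjusted p = 0.875 in limma), or -0.36 (SE 0.15, adjusted p = 0.339) without control replicate 2. Of 29 imprinted genes, 8 were tested and 0 were called, with a median of -0.07, or 0.09 without control replicate 2. Gnas had 0.824, 0.724 and 0.912 FPKM in controls and 5.49, 4.96 and 0.213 FPKM in PM2.5 cells, so PM2.5 replicate 3 stood below every control. It passed the filter of a mean of 1 FPKM only through PM2.5 replicates 1 and 2. For Gnas the log2 difference was 0.99 (SE 0.66), or 0.95 (SE 0.79) without control replicate 2, and 22.0% of its exon length is shared with Gm20721 and Nespas on the other strand. Cdkn1c was at -0.79 (SE 0.41), or -0.34 without control replicate 2. H19, named after its values were seen and under the filter, had 23, 18 and 26 reads in controls and 11, 13 and 8 reads in PM2.5 cells.

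The labelled cell type was checked against its markers. Of 18 spermatocyte markers, 15 had at most 10 reads in every library and 8 had no read in any, and the 1 tested was Syce2, at 70.6 to 94.7 FPKM. Sycp3, named after its values were seen, had 8, 42 and 9 reads in controls and 0, 6 and 10 reads in PM2.5 cells, with 52.2% of its exon length shared with Chpt1 on the other strand. The libraries are therefore described by the name of the line. Of 10 fibroblast and peritubular markers, 8 were tested, and their summed level was 1135 to 1506 FPKM in controls and 842 to 1070 FPKM in PM2.5 cells. In the fit of all libraries 2 of these 8 had an unadjusted p under 0.05, Col1a2 at -0.66 and Col3a1 at -0.70, where 3.80% of all genes did. Without control replicate 2, 5 of 8 did, where 15.9% of all genes did, and 0 were called in either fit. Those 5, named after their values were seen, were Col1a2 at -0.67, Fn1 at -0.67, Col3a1 at -0.59 and Pdgfra at -0.32, and Acta2 on the other side at 0.46. Leukocyte markers summed to 1.13 to 15.5 FPKM in controls and 1.40 to 2.504 FPKM in PM2.5 cells, and Sertoli and Leydig markers to 17.6 to 23.9 and 26.6 to 28.6 FPKM. Of the 14 Sertoli and Leydig markers 2 were tested and 0 were called. Both were named after their values were seen, Clu at 0.52 (SE 0.28) and Star at -0.12 (SE 0.19). They were at 0.24 (SE 0.09) and -0.002 (SE 0.11) without control replicate 2. The 1 leukocyte marker tested was Cd68, named after its values were seen. It was at -0.68 (SE 0.87) with all libraries and at 0.36 (SE 0.18) without control replicate 2. In bulk RNA, fewer cells of a type and less RNA per cell cannot be told apart, and the part of these markers in the members' values was not tested.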

How the data were processed

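RNA was measured in 3 control and 3 PM2.5 libraries, grouped by the sample labels. The authors prepared them with the NEBNext Ultra kit and sequenced them as paired ends on a Novaseq. Per the submitters' processing notes, reads were mapped with HISAT2 2.0.5 and counted with featureCounts 1.5.0-p3, and mm9 is the build named. The authors deposited FPKM values, one table per library, and tested with DESeq2. The use of strand in counting is not given in the sources used here.

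The members and gene lists were chosen with earlier results of these data known. Symbols, exon lengths and positions came from GENCODE M21 on GRCm38, where 54495 of the 54886 genes had one. FPKM multiplied by exon length gave the reads, of which 98.1% to 98.4% of low values per library were whole within 0.05 reads. The implied denominators followed size factors, so libraries were taken as already scaled. limma 3.58.1 (R 4.3.3, trend and robust options) was fitted on log2(FPKM + 1), a scale that understates the change of low genes, over 11884 genes with a mean of at least 1 FPKM. Genes were called at a Benjamini-Hochberg adjusted p under 0.05, 2-sided. Ratios were compared by exact permutation. No 2 libraries agreed within sampling noise, as the smallest chi-square per degree of freedom between any was 3.60.

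Besides the members, the genes named are Uhrf2, Hells, Usp7, Mat2a, Ahcy, Idh1, Idh2, Ogt and Pcna, any called gene of a pathway list, and the 2 tested genes of each list with the largest log2 difference. A further gene of this rule is not reported here. Any other gene is said to be named after its values were seen. Alternatives were other pseudocounts, filters and scalings, quantile normalization, voom on the recovered reads, the replicate number as a block, a fold threshold, and leaving out each library. Intervals on reads cover counting error only.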

Additional observations from a re-analysis of the deposited data

How the results depend on the processing

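No member was called under any of the 20 settings run. The lowest adjusted p in limma was 0.483 for the 7 that passed the filter, and 0.336 for Dnmt3l with voom, no filter and without control replicate 2. Over all genes, 11 were called with all libraries, 0 with no filter, 4 with a mean of at least 0.1 FPKM, 6 scaled to recovered totals and 0 with voom, and leaving out 1 library gave 0 to 118, the 118 without control replicate 2. Without control replicate 2, voom called 150. Of the combinations chosen after seeing the data, no filter without control replicate 2 called 41, voom with no filter called 2, and voom with no filter and without control replicate 2 called 113. Scaling to totals shifted the median log2 difference over genes by 0.12.

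Whether the replicate numbers pair the libraries could not be decided. Correlations of deviations were -0.28, 0.18 and 0.25 where a control and a PM2.5 library shared a number. Where the numbers differed, they ran from -0.28 to 0.29. These ranges are much alike, so the check shows neither pairing nor its absence. The replicate block called 0 genes with all libraries and 92 without control replicate 2.

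Of 84 member values under 12 alternatives that leave out no library alone, 65 kept the sign and 19 did not. Leaving out 1 library at a time, the log2 difference ranged from -0.00713 to 0.302 for Dnmt1, -0.0587 to 0.0795 for Dnmt3a, -0.174 to -0.0637 for Dnmt3b, -0.0244 to 0.420 for Uhrf1, -0.0751 to 0.309 for Tet3, -0.0413 to 0.784 for Tdg and -0.243 to -0.0581 for Mbd4. The 5 lower ends below 0 of genes that were higher with all libraries were those without control replicate 2. Dnmt1 turned to -0.0516 with the block and -0.00713 with no filter, both without control replicate 2. Dnmt3a turned to -0.0481 with quantile normalization and to -0.00210 without PM2.5 replicate 2. In the block, voom, no-filter and voom no-filter fits, each without control replicate 2, Dnmt3a was at -0.0873, -0.105, -0.0587 and -0.101, Uhrf1 was at -0.00915, -0.0151, -0.0244 and -0.0117, Tet3 was at -0.0911, -0.0792, -0.0751 and -0.0760, and Tdg was at -0.0654, -0.0335, -0.0413 and -0.0302. The cause was not tested. Depth limited Dnmt3l most, with 0 to 13 reads per library.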
